A study of Mus musculus with 8 samples.

Results

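The genes described here encode the subunits of high-voltage-activated calcium channels and of voltage-gated sodium channels. They were chosen by gene symbol (Cacna1, Cacna2d, Cacnb and Cacng followed by their letter or number, and Scn followed by a number and a or b), leaving out the T-type pore genes and 3 gamma subunit genes that serve mainly AMPA receptors. The rule found 33 genes among 18939 genes with a read count. By family these were 7 calcium channel alpha1 genes, 4 alpha2delta genes, 4 beta genes, 5 gamma genes, 9 sodium channel alpha genes and 4 sodium channel beta genes. The table lists the sodium channel gene Scn2a under its older symbol Scn2a1, which the rule does not match, so its values stand beside those of the members and it is not counted as one.

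Voltage-gated calcium and sodium channels open when the membrane depolarizes. The large alpha1 or alpha protein forms the pore, the sodium channel starts and carries the action potential, and calcium entry through P/Q-, N- and R-type channels triggers transmitter release, while L-type channels act in dendrites and cell bodies. Alpha2delta and beta subunits set how many calcium channels reach the membrane and how they gate. The gamma family is mixed, and the products of Cacng4, Cacng5 and Cacng7 are partners of AMPA receptors. The sodium channel beta subunits tune gating and bind adhesion molecules. The mu opioid receptor (MOR), the receptor of morphine, acts through inhibitory G proteins whose beta-gamma dimers reduce N- and P/Q-type calcium current in many neurons.

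RNA was obtained by translating ribosome affinity purification (TRAP-Seq), in which an EGFP-tagged ribosomal protein is pulled down with its messenger RNAs, from gross dissections aimed at the paraventricular nucleus of the thalamus (PVT). All mice, controls included, had the genotype OPRM1cre X EGFP-L10a, so that Cre expressed from the MOR gene turned on the tagged ribosome in cells that express the receptor, or did so at an earlier age. The morphine group drank morphine in 0.2% saccharin for 11 days, at a concentration raised over time to 0.5 mg/ml, and the control group drank 0.2% saccharin. Each of the 4 libraries per group (2 labelled male and 2 labelled female) pooled dissections of 2 mice, so P values measure the spread between such pools.

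Total counts were 37081346 to 43311792 in the control libraries and 31151106 to 47582947 in the morphine libraries. Control replicate 5, labelled female, held counts of 4 Y-linked genes at 28.7% to 35.8% of the mean of the male libraries, and the comparison is therefore also given without it. Thalamic markers were abundant in all 8 libraries, with 215.5 to 349.8 CPM (read counts scaled to the library size after TMM normalization) for Slc17a6, the vesicular glutamate transporter of thalamic neurons, and 686 to 1359 CPM for the thalamic transcription factor Tcf7l2. A marker of GABAergic neurons, Gad2, was also abundant, at 481.8 to 705.4 CPM in the control group and 361.6 to 599.4 CPM in the morphine group. It was above Slc17a6 in all 8 libraries. Which cells the channel transcripts came from was not tested. Oprm1 itself, which encodes MOR, had 16.8 to 32.3 CPM in the control group and 14.0 to 18.4 CPM in the morphine group (log2 fold change -0.62, SE 0.19, edgeR adjusted P = 0.207), and the thalamic transcription factor gene Gbx2 had 60.6 to 78.3 CPM and 27.0 to 62.5 CPM (log2 fold change -0.69, SE 0.22, edgeR adjusted P = 0.227). The part of these differences in the values of the channel genes was not tested. To compare genes, CPM were divided by the transcript length in kilobases (CPM per kb).

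In the control libraries accessory subunits had high levels per kb. Scn2b, a sodium channel beta gene, had 154 ± 15.9 CPM per kb (SD, n = 4), and Cacnb3, the most abundant calcium channel beta gene, at 125 ± 20.6 CPM per kb. The range of Cacnb3 (98.4 to 148.6) overlapped that of Scn2b (140.2 to 177). Cacnb4 had 81.9 CPM per kb, Cacnb2 46.2 CPM per kb and Cacnb1 34.4 CPM per kb, the last of which overlaps the ribosomal protein gene Rpl19 in the genome and is uncertain because the counting is not stated to use the strand.

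Among the pore genes described here, which leave out the T-type genes, 3 sodium channel genes stood above every calcium channel alpha1 gene. Scn2a1 (26.1 ± 3.54 CPM per kb), Scn1a (20.8 ± 4.08 CPM per kb) and Scn8a (18.4 ± 3.01 CPM per kb) encode the main sodium channels of central neurons. The ranges of neighbours in this order overlapped, as Scn1a ranged from 17.1 to 25.7 and Scn8a from 15.7 to 22.2 CPM per kb. Within each control library, though, Scn1a lay above Scn8a. Their shares of the summed CPM per kb of the family with Scn2a1 were 28.09%, 30.62%, 33.01% and 24.58% against 24.6%, 26.45%, 28.32% and 23.57%. Scn2a1 lay above Scn1a except in control replicate 5. The highest calcium channel alpha1 gene was Cacna1c, the neuronal and cardiac L-type pore, at 12.7 ± 1.21 CPM per kb, followed by the P/Q-type gene Cacna1a (9.996 ± 1.65 CPM per kb), the R-type gene Cacna1e (6.12 ± 0.966 CPM per kb), the N-type gene Cacna1b (6.02 ± 1.48 CPM per kb) and the L-type gene Cacna1d (3.63 ± 0.335 CPM per kb). The ranges of Cacna1e and Cacna1b overlapped. In the other families the highest genes were Cacna2d1 (19.6 ± 3.31 CPM per kb) among the alpha2delta genes and Cacng7 (23.9 ± 5.69 CPM per kb) among the gamma genes.

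**Figure D1:**
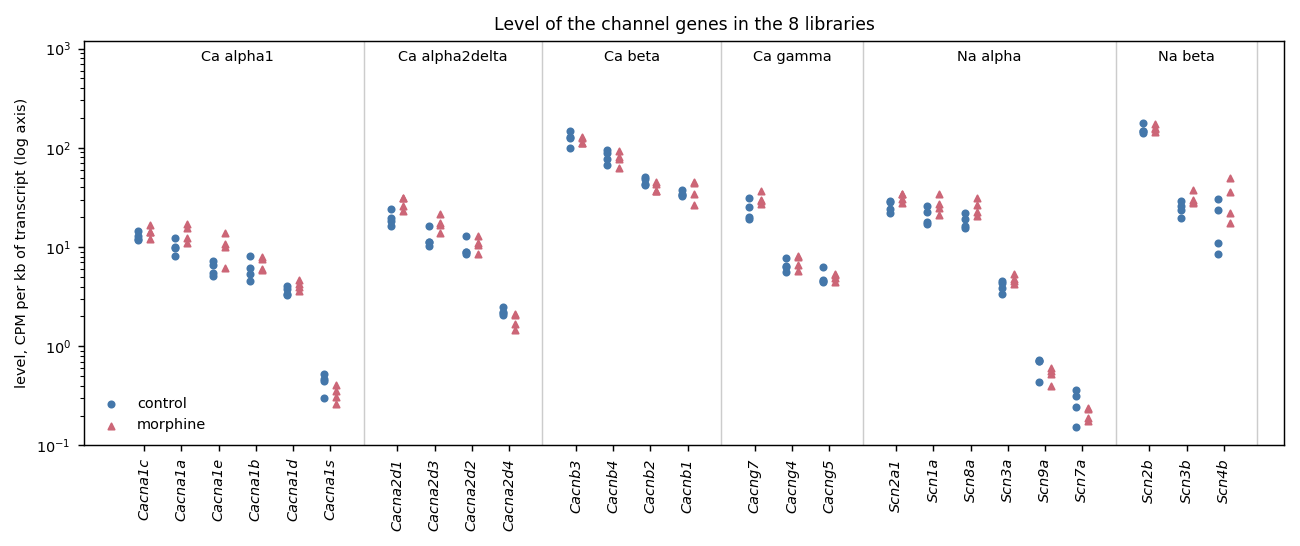
Level of the reported channel genes of at least 1 CPM, and of Scn2a1, in the 4 control (circles) and 4 morphine (triangles) libraries, as CPM per kb of transcript on a log axis, ordered by subunit family and control mean. Scn2b lies at 154 CPM per kb on average in the control group, Scn2a1, Scn1a and Scn8a lie between 18.4 and 26.1 and the high-voltage-activated calcium channel alpha1 genes at 12.7 and below.

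Several genes known from other tissues were close to the detection limit. The 6 members under 1 CPM in both groups were Cacna1f of the retina, the skeletal muscle genes Scn4a, Cacng1 and Cacng6, and Scn10a and Scn11a, which are sodium channels of peripheral sensory neurons. Scn4a had 0 to 3 counts per library, Cacna1f 0 to 8, Cacng6 0 to 7, Scn10a 0 to 12, Scn11a 4 to 17 and Cacng1 9 to 29. A library with 0 counts of a gene allows up to 0.063 to 0.0963 CPM of it (3 counts of the total), a limit that covers counting error only. The muscle L-type pore gene Cacna1s was detected at 2.72 ± 0.586 CPM in the control libraries and Scn7a, whose product senses extracellular sodium, at 1.97 ± 0.663 CPM. The other 27 members had at least 1 CPM, and 28 of the 33 passed edgeR's filter on low counts.

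The comparison of the morphine group with the control group asks which genes differ in MOR-expressing neurons after 11 days of morphine. In edgeR's quasi-likelihood test, with P values adjusted over all genes by Benjamini-Hochberg, 0 of the 33 channel genes had an adjusted P value under 0.05, against 0.195% of the 18939 genes tested. At an unadjusted P value under 0.05 in the same edgeR fit, 7 of 33 (21.2%) were higher in the morphine group, where all genes gave 6.79%, and 0 were lower, where all genes gave 5.31%. The 7 were Cacna2d1, Cacna1e, Cacna1a, Cacna2d3, Scn8a, Scn3b and Cacng7. DESeq2 called 2 members, Cacna1e (adjusted P = 0.0368) and Cacna2d1 (adjusted P = 0.0348), where it called 2.65% of all genes, and limma-voom called 0 members.

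The 33 genes had a positive log2 fold change (morphine minus control) in 21 cases and a negative one in 12. Their median was 0.13, beside 0.01 over all genes tested, of which 51.4% were positive. This median rests on single libraries, being 0.05 without control replicate 5, 0.24 without control replicate 2, 0.23 without morphine replicate 3 and 0.075 without morphine replicate 4. In 24 of the 33 members leaving out 1 library moved the log2 fold change by over 1.5 times or turned its sign. The other 9 were Cacna1a, Cacna1d, Cacna1e, Cacna1s, Cacna2d1, Cacna2d3, Cacnb2, Cacng7 and Scn8a. Morphine and control libraries overlapped in all 33 genes, while among all genes 3.34% had every morphine library above every control library and 3.21% had the reverse. By family, the median log2 fold change was 0.31 for the alpha2delta genes, 0.19 for the alpha1 genes, 0.36 for the gamma genes, 0.18 for the sodium channel beta genes, -0.06 for the calcium channel beta genes and -0.23 for the sodium channel alpha genes. The gamma and sodium channel alpha families include 2 and 3 genes under 1 CPM, and without these their medians were 0.13 and -0.05.

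**Figure D2:**
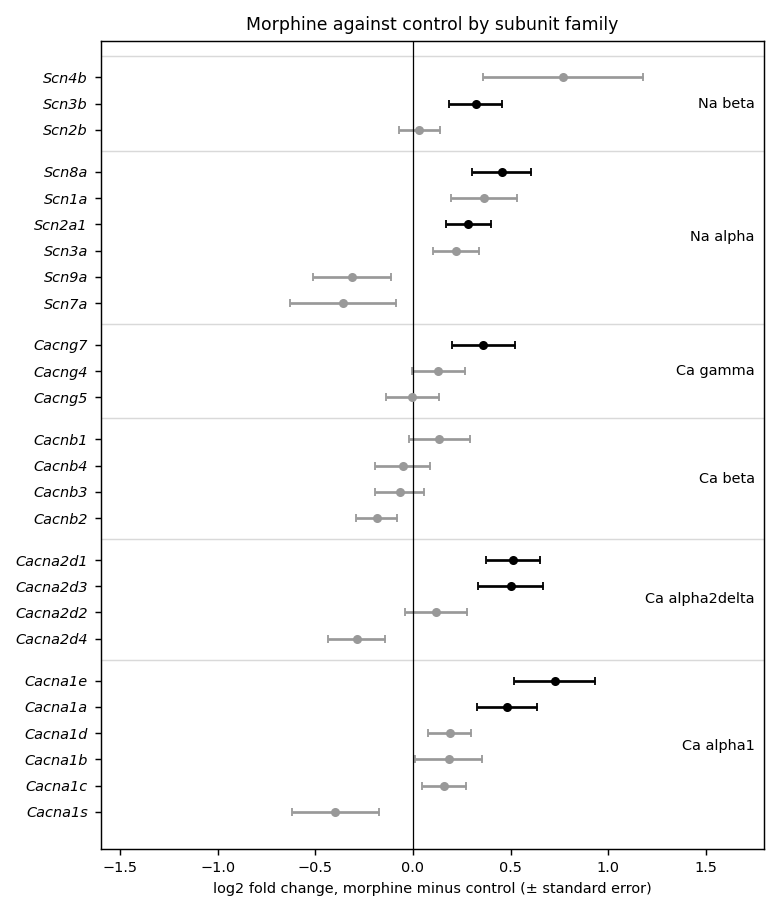
Log2 fold change (morphine minus control, edgeR, ± standard error) of the reported channel genes of at least 1 CPM and Scn2a1, ordered by subunit family, where black marks an unadjusted P value under 0.05 and grey the others. The 7 black members and Scn2a1 lie between 0.28 and 0.73, and the 4 calcium channel beta genes lie between -0.19 and 0.13.

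Cacna2d1 (chr5:15934264-16374511) encodes the alpha2delta1 subunit, the binding site of gabapentin and pregabalin, and had the lowest P value of the 33. Control replicates 1, 2, 5 and 6 had 64.1, 94.7, 77.9 and 71.6 CPM, and morphine replicates 3, 4, 7 and 8 had 102, 123, 91.7 and 123 CPM. Values of later genes follow the same order of libraries. Of the morphine libraries, 3 lay above every control library, and replicate 7 lay below control replicate 2. Its log2 fold change was 0.51 (SE 0.14, edgeR adjusted P = 0.161). It stayed between 0.42 and 0.63 with each library left out in turn, was 0.50 without control replicate 5, and kept an unadjusted P value under 0.05 in all 8 of these fits.

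Cacna2d3 (chr14:28904943-29722775), another alpha2delta gene, had 41.9, 59.7, 41.9 and 37.8 CPM in the control group and 50.6, 80.0, 64.6 and 61.3 CPM in the morphine group. Control replicate 2 was again the highest control library, above morphine replicate 3 only. This gave a log2 fold change of 0.50 (SE 0.17, edgeR adjusted P = 0.254), with 0.45 when control replicate 5 was left out. The gene overlaps Lrtm1, a protein-coding gene, in the genome.

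Cacna2d4, an alpha2delta gene best known from photoreceptors, went the other way with low levels. It had 14.4, 12.5, 11.9 and 12.8 CPM in the control group and 12.2, 9.69, 12.1 and 8.37 CPM in the morphine group (log2 fold change -0.29, SE 0.15, edgeR adjusted P = 0.469, and -0.19 without morphine replicate 8). Morphine replicates 4 and 8 lay below every control library and morphine replicates 3 and 7 lay within the control range. Cacna2d4 overlaps the protein-coding gene Lrtm2 in the genome. Cacna2d2 had 57.2 ± 12.3 CPM in the control group and 62.1 ± 10.7 CPM in the morphine group.

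Cacna1e (chr1:154390806-154884785), the R-type pore gene, had the largest positive log2 fold change among the pore genes described here of at least 1 CPM. Control libraries had 82.3, 98.6, 76.7 and 107.9 CPM, and morphine libraries had 91.0, 207, 148 and 158 CPM. Morphine replicate 3 lay within the control range, while morphine replicates 4, 7 and 8 lay above all 4 control libraries. With all libraries the log2 fold change was 0.73 (SE 0.21, edgeR adjusted P = 0.188). Without morphine replicate 3 it was 0.91 and edgeR called the gene (adjusted P = 0.0476), the only call among the members when libraries were left out, and without morphine replicate 4 it was 0.54. Leaving out control replicate 5 gave 0.64 (edgeR adjusted P = 0.327).

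Cacna1a (chr8:84338631-84640251), the P/Q-type pore gene, had 64.9, 96.6, 78.8 and 76.6 CPM in the control group and 87.6, 122, 97.5 and 134 CPM in the morphine group. Only morphine replicate 3 lay below the highest control library, replicate 2. Between the groups the log2 fold change was 0.48 (SE 0.15, edgeR adjusted P = 0.241), and 0.46 without control replicate 5. For the N-type gene Cacna1b the log2 fold change was 0.18 (SE 0.17, edgeR adjusted P = 0.677), or 0.06 without control replicate 5 and 0.35 without control replicate 2, with 58.1 ± 14.3 CPM in the control group and 66.0 ± 10.6 CPM in the morphine group.

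Cacna1c (chr6:118587240-119197384) is an L-type pore gene and had the highest control mean per kb of the high-voltage-activated alpha1 genes. It had 89.3, 109.9, 91.7 and 97.6 CPM in the control group and 92.5, 126, 107 and 107 CPM in the morphine group. Only morphine replicate 4 exceeded every control library, and the log2 fold change was 0.16 (SE 0.11, edgeR adjusted P = 0.617), and 0.075 without that library. Cacna1d had a log2 fold change of 0.19 (SE 0.11), and Cacna1s one of -0.40 (SE 0.22), the latter -0.55 with an unadjusted P value under 0.05 in edgeR when control replicate 5 was left out. Cacna1c overlaps Dcp1b, and Cacna1d overlaps Chdh and Dcp1a.

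Within the alpha1 family, the make-up of the pore transcripts can be given as each gene's share of the summed CPM per kb. Cacna1c held 33.8%, 31.5%, 34.0% and 31.9% of the sum in control replicates 1, 2, 5 and 6, and 31.0%, 28.5%, 30.1% and 25.8% in morphine replicates 3, 4, 7 and 8. These shares did not overlap between the groups, which was so in 2 of the 34 genes given a share (5.88%), while the CPM of 3.34% and 3.21% of all genes lay wholly above or below. The R-type gene Cacna1e held 14.5% to 18.1% in the control group and 15.6% to 23.9% in the morphine group, with overlap, and the sum itself was 34.6 to 45.7 CPM per kb in the control group and 39.1 to 58.0 CPM per kb in the morphine group. In the gamma family Cacng5 held 12.4% to 15.1% in the control group and 10.8% to 12.2% in the morphine group. Both pairs of ranges were picked out after the shares of all these genes had been seen, and shares within a family depend on each other, so they carry no P value.

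**Figure D3:**
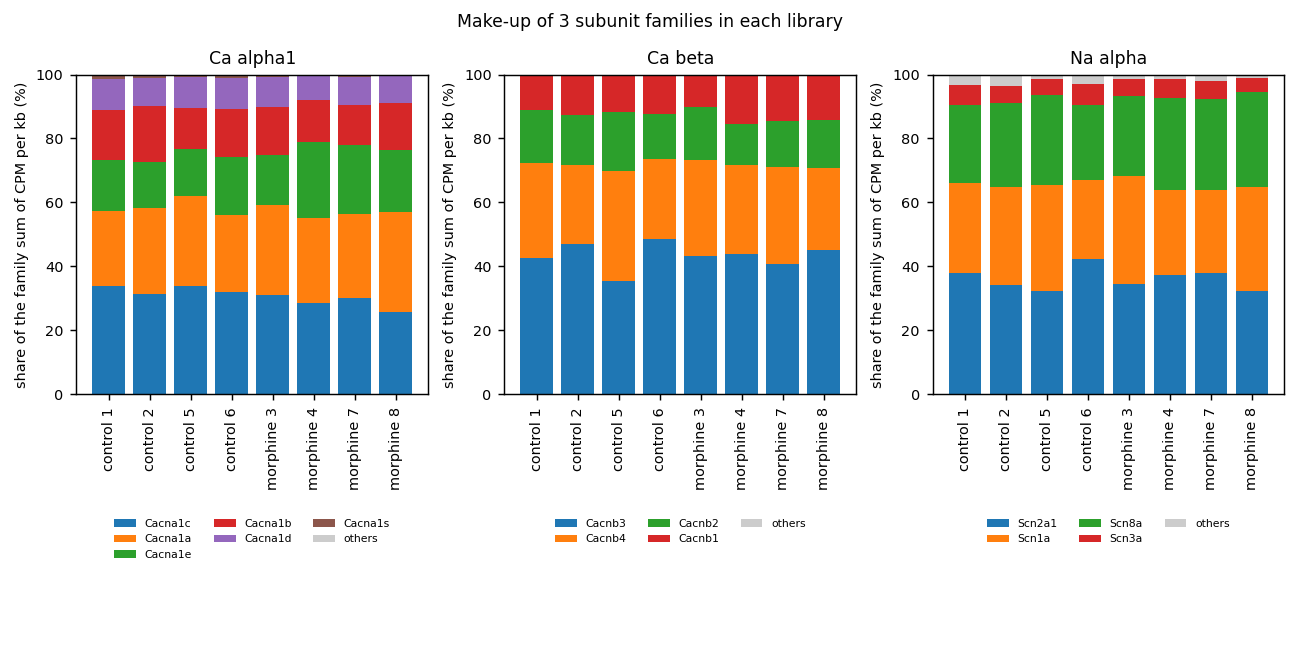
Share (%) of each gene in the summed CPM per kb of the calcium channel alpha1, calcium channel beta and sodium channel alpha families, 1 bar per library with the controls on the left, and genes not in the legend are pooled as others. Cacna1c takes 31.5% to 34.0% of the alpha1 sum in the control libraries and 25.8% to 31.0% in the morphine libraries.

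The calcium channel beta subunits, which bind the alpha1 subunit inside the cell and carry it to the membrane, had the narrowest range of log2 fold changes of the 6 families. Cacnb3 (chr15:98628436-98644536) had 315, 321, 247 and 373 CPM in the control group and 283, 319.9, 317 and 278 CPM in the morphine group. All 4 morphine libraries lay inside the control range, and the log2 fold change was -0.07 (SE 0.12, edgeR adjusted P = 0.860). Cacnb4 had 645 ± 96.2 CPM in the control group and 621 ± 97.6 CPM in the morphine group. Log2 fold changes of Cacnb1 and Cacnb2 were 0.13 (SE 0.16) and -0.19 (SE 0.11).

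Of the gamma genes, Cacng7 (chr7:3332027-3368221), whose product also binds AMPA receptors, had 44.0, 69.2, 56.4 and 41.9 CPM in the control group and 66.2, 65.1, 59.4 and 81.0 CPM in the morphine group. Control replicate 2 lay above 3 of the morphine libraries. Cacng7 had a log2 fold change of 0.36 (SE 0.16, edgeR adjusted P = 0.398), which was 0.24 without control replicate 6 and 0.52 without control replicate 2. Its unadjusted P value was under 0.05 in 2 of the 8 fits that left out a library and in neither fit with a filter on low counts. Cacng4 and Cacng5, also AMPA receptor partners, had log2 fold changes of 0.13 (SE 0.14) and -0.003 (SE 0.13). Cacng7 and Cacng6 are neighbours on chromosome 7, as are Cacng1, Cacng4 and Cacng5 on chromosome 11, and in each group of neighbours the levels differed widely, from 23.9 CPM per kb for Cacng7 to 0.031 CPM per kb for Cacng6 in the control group.

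**Figure D4:**
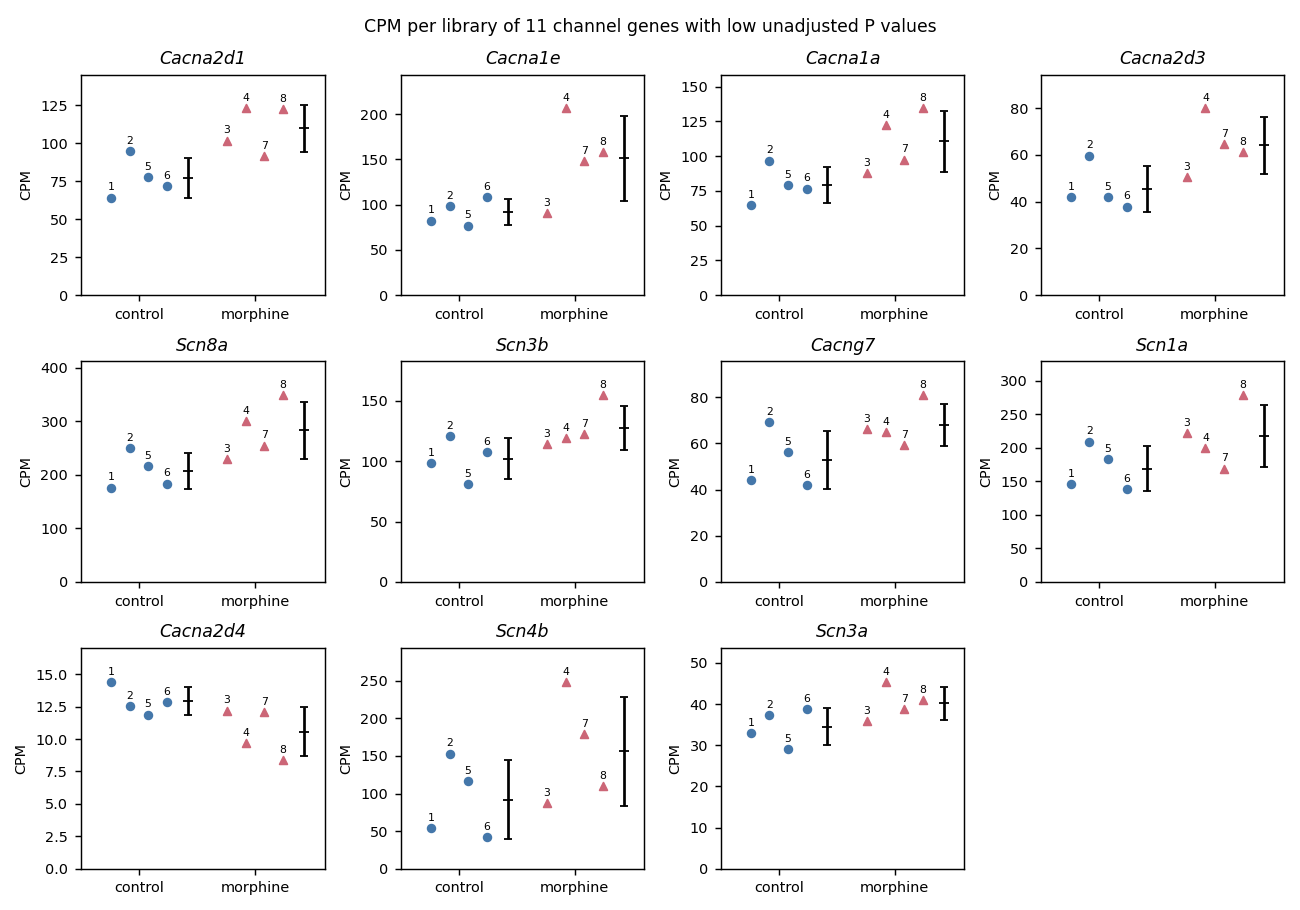
CPM of 11 channel genes with low unadjusted P values in the 4 control (circles) and 4 morphine (triangles) libraries, labelled by replicate number, with the mean ± SD of each group beside them. In Cacna2d1, Cacna1e, Cacna1a, Cacna2d3 and Scn8a, 3 of 4 morphine libraries lie above every control library.

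Scn8a (chr15:100869863-101045938) encodes the sodium channel of the axon initial segment and of nodes of Ranvier. It had 176, 249.7, 217 and 184 CPM in the control group and 229, 300.2, 255 and 349 CPM in the morphine group. Morphine replicate 3 lay between control replicates 5 and 2, and the others lay above all controls. Scn8a had a log2 fold change of 0.46 (SE 0.15, edgeR adjusted P = 0.254), and 0.46 without control replicate 5.

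Scn1a (chr2:66270781-66440837), best known from fast-spiking inhibitory neurons and from inherited epilepsy, had 145, 209, 183 and 138 CPM in the control group and 221, 199, 169 and 278.5 CPM in the morphine group. Morphine replicates 4 and 7 lay within the control range (log2 fold change 0.36, SE 0.17, edgeR adjusted P = 0.428, and 0.22 without morphine replicate 8). Scn2a1 (chr2:65620764-65767447), the channel of proximal axons and unmyelinated fibres, had 209.9, 249.3, 192 and 255 CPM in the control group and 244, 299.6, 264 and 296 CPM in the morphine group. Morphine replicates 4, 7 and 8 lay above every control library, with a log2 fold change of 0.28 (SE 0.12, edgeR adjusted P = 0.361). Without control replicate 5, the lowest of its control libraries, it was 0.20.

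Scn3a, a sodium channel gene of the developing brain, had 33.0, 37.3, 29.0 and 38.8 CPM in the control group and 35.9, 45.4, 38.8 and 40.9 CPM in the morphine group. Morphine replicates 4 and 8 lay above every control library (log2 fold change 0.22, SE 0.12, edgeR adjusted P = 0.497, and 0.13 without control replicate 5). Together the sodium channel alpha genes and Scn2a1 summed to 63.7 to 84.1 CPM per kb in the control group and 80.1 to 105 CPM per kb in the morphine group. Scn3a, Scn2a1, Scn1a, Scn9a and Scn7a lie in this order within 1327.8 kb of chromosome 2, with positive log2 fold changes in Scn3a, Scn2a1 and Scn1a and negative ones in the others, -0.31 (SE 0.20) for Scn9a and -0.36 (SE 0.27) for Scn7a.

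Among the sodium channel beta genes, Scn3b (chr9:40269216-40291618) had 98.7, 121, 81.1 and 107.9 CPM in the control group and 115, 119, 122 and 155 CPM in the morphine group. Morphine replicates 7 and 8 lay above every control library. For Scn3b the log2 fold change was 0.32 (SE 0.14, edgeR adjusted P = 0.376), and 0.21 without control replicate 5. The unadjusted P value of Scn3b was under 0.05 in 3 of the 8 fits that left out a library.

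Scn4b (chr9:45138624-45154155), whose product supports the resurgent sodium current of rapidly firing neurons, varied widely within both groups. It had 54.4, 153, 116 and 42.2 CPM in the control group and 87.5, 248, 179 and 109.7 CPM in the morphine group. Only morphine replicates 4 and 7 lay above every control library, and the log2 fold change was 0.77 (SE 0.41, edgeR adjusted P = 0.495). Without control replicate 2 the log2 fold change was 1.13, and without morphine replicate 4 it was 0.45.

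Scn2b and Scn4b lie 8.55 kb apart on chromosome 9, both on the plus strand. Scn2b was even across libraries (608 ± 62.9 CPM in the control group and 622 ± 47.9 CPM in the morphine group), while Scn4b ranged from 42.2 to 248 CPM. The 100 bases before the start of each are shown because these neighbours had such different spreads, and those of Scn1a are shown from the sodium channel alpha family. The sequences are from RefSeq on GRCm38.p6, 5′ to 3′ on the strand of the gene, at chr9:45117776-45117875 (plus strand), chr9:45138524-45138623 (plus strand) and chr2:66440838-66440937 (minus strand), and capitals mark a CCAAT box read on either strand.
Scn2b: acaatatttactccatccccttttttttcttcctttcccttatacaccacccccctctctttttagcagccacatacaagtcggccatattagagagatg
Scn4b: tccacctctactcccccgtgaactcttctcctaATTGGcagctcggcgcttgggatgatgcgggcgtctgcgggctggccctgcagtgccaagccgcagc
Scn1a: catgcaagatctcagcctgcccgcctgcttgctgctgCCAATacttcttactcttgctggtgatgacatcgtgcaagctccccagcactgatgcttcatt

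The Scn2b sequence was 42% G and C and held no CCAAT box, while the Scn4b sequence was 65.0% G and C with a CCAAT box 67 bases before the start, and the Scn1a sequence was 53.0% with such a box 63 bases before it. Promoter windows of 300 bases (250 before and 50 after a start) were found for 25 members, 35 windows in all. On either strand, the GC box GGGCGG was in 45.7% of them and in 35.7% of 32851 windows of all genes, CCAAT in 28.6% against 37.4%, TATAAA in 2.86% against 13.6% and the cyclic AMP response element TGACGTCA in 0 against 1.79%. The median G and C content was 59.7% in the windows of the members and 52.7% in all windows. These matches describe the letters of the windows only.

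Libraries differed from each other across many members at once. Among the 27 members of at least 1 CPM, control replicate 2 was the highest control library in 19, where it was so in 31.9% of 12989 genes of at least 1 CPM on average, and control replicate 5 was the lowest in 15, against 24.9%. In the morphine group, replicate 3 was the lowest library in 13 of 27 (30.6% of all such genes), replicate 8 the highest in 11 (26.0%) and replicate 4 in 10 (19.4%). Without control replicate 2, 10 members were higher in the morphine group at an unadjusted P value under 0.05 in edgeR, when 18.5% of all genes passed in either direction, and without control replicate 5, when 11.1% passed, there were 5 higher and 4 lower, with Cacna1s, Scn7a and Scn9a among the latter. Cacna2d1, Cacna1e, Cacna1a, Cacna2d3 and Scn8a were among those higher in every one of the 8 fits that left out a library. Members are not independent of each other in these counts, since all come from the same RNA of each library.

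Markers of other cells moved with the groups. Choroid plexus markers, of which 11 of 13 were higher in the morphine group at an unadjusted P value under 0.05 in edgeR (0 called), summed to 43.4 to 162 CPM in the control libraries and 218 to 682 CPM in the morphine libraries, without overlap, and Ttr, the transthyretin gene that defines this tissue, had 0.949 to 44.5 CPM and 69.9 to 302 CPM. Of these markers Kcnj13 was at 0 in control replicate 1 and 0 were at 0 in every library. Markers of telencephalic pyramidal neurons summed to 79.3 to 248 CPM and 183 to 408 CPM, with 6 of 10 higher and 1 of them called by edgeR (Itpka, adjusted P = 0.0415), and 0 were at 0 in any library. In libraries made from many cells at once, as these are, fewer cells of a type and less RNA per cell cannot be told apart.

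With the mean log2 CPM of the telencephalic markers in the model, the median log2 fold change of the 27 members was 0.04, and 1 of 33, Cacng7, had an unadjusted P value under 0.05 in edgeR, where 6.62% of all genes did. In that fit Cacna1e had a log2 fold change of 0.09 (SE 0.31), while Cacna2d1 had 0.52 (SE 0.25), Cacna2d3 0.53 (SE 0.32) and Scn8a 0.45 (SE 0.28). With the choroid plexus score in the model the median was -0.01, and 0 members passed as higher and 1 as lower, where 3.37% of all genes passed. That member was Cacna1f, with 0 to 8 counts per library, at -3.39 in that fit against 0.31 without the score. The other log2 fold changes in that fit included Cacna2d1 at 0.22 (SE 0.23), Cacna1e at 0.23 (SE 0.31), Cacna1a at 0.05 (SE 0.23) and Scn8a at 0.14 (SE 0.25). The median standard error of the members was 0.28 and 0.25 in these fits and 0.15 without a score. Because the choroid plexus score did not overlap between the groups, it and morphine cannot be told apart in these libraries.

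**Figure D5:**
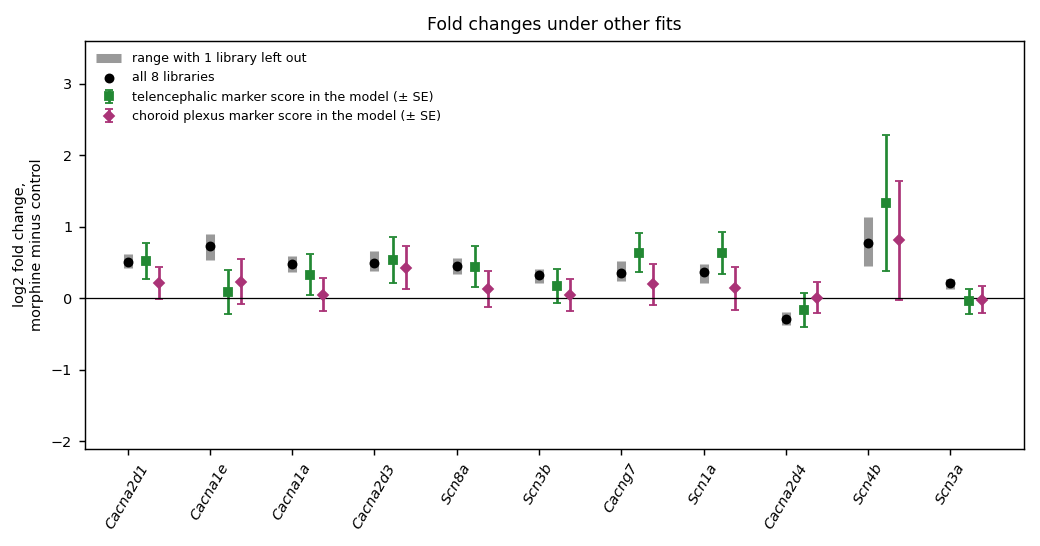
Log2 fold change (morphine minus control) of 11 channel genes with low unadjusted P values with all 8 libraries (black), the range with 1 library left out (grey) and the values with a telencephalic (green squares) or choroid plexus (purple diamonds) marker score in the model, ± SE. Cacna1e is at 0.73 with all libraries and at 0.09 and 0.23 with the scores, and Cacna2d3 is at 0.50, 0.53 and 0.43.

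The mean log2 CPM of the telencephalic markers overlapped between the groups (2.089 to 4.065 in the control group and 3.611 to 4.755 in the morphine group). The remaining marker lists overlapped too. Their median log2 fold changes were -0.20 for thalamic neurons (0 of 10 higher and 1 lower at an unadjusted P value under 0.05 in edgeR), 0.19 for habenula neurons (0 of 6), -0.16 for GABAergic neurons (2 of 10 lower), 0.46 for astrocytes (1 of 8 higher), 0.74 for oligodendrocytes (0 of 9), 0.46 for oligodendrocyte precursors (0 of 5), -0.10 for microglia (0 of 8) and -0.22 for endothelial cells (0 of 8). Summed levels of the thalamic markers were 2739 to 3463 CPM in the control group and 2150 to 3493 CPM in the morphine group. Those of the GABAergic markers were 1215 to 1620 CPM and 937.7 to 1449 CPM.

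Proteins that bind these channels were listed separately, and 35 of 42 listed genes were measured. By edgeR 0 of the 35 were called, against 0.195% of all genes, and the median log2 fold change was 0.10. At an unadjusted P value under 0.05 in edgeR 3 were higher and 2 lower, where 6.79% and 5.31% of all genes were. These counts lie near those shares. DESeq2 called 1, Rrad (adjusted P = 0.0320), where it called 2.65% of all genes, and limma-voom called 0. The median was 0.15 over the 11 sodium channel partners, -0.01 over the 20 calcium channel partners and 0.02 over the 4 genes of the sodium leak channel complex.

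Rrad, a small GTPase that binds calcium channel beta subunits and inhibits the channel, had 2.59, 5.04, 2.08 and 4.26 CPM in the control group and 1.40, 1.12, 2.53 and 1.03 CPM in the morphine group. Of the morphine libraries, 3 lay below every control library (log2 fold change -1.21, SE 0.35, edgeR adjusted P = 0.193). Cabp1, a calcium sensor of calcium channels, had 34.0, 63.7, 56.5 and 40.4 CPM and 65.8, 71.9, 57.2 and 76.3 CPM (log2 fold change 0.48, SE 0.18, edgeR adjusted P = 0.319). Morphine replicates 3, 4 and 8 lay above every control library.

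Cntn1, an adhesion protein that binds sodium channel beta subunits, had 199, 283, 213 and 227 CPM in the control group and 288, 305.5, 262 and 368.5 CPM in the morphine group (log2 fold change 0.41, SE 0.14, edgeR adjusted P = 0.256). Fgf13, which binds the tail of sodium channel alpha subunits, had 224, 209, 279.8 and 240.4 CPM and 321, 265, 287 and 291 CPM (log2 fold change 0.29, SE 0.11, edgeR adjusted P = 0.320). Unc80, a subunit of the sodium leak channel, had 1141, 810.1, 1079 and 959 CPM and 918, 693, 805 and 796 CPM (log2 fold change -0.31, SE 0.13, edgeR adjusted P = 0.369). In each of these genes control replicate 2 or 5 lay inside the range of the morphine libraries. With the choroid plexus score in the model the log2 fold changes were 0.08 for Cntn1, 0.17 for Cabp1, 0.32 for Fgf13 and -0.07 for Unc80, and with the telencephalic score 0.37, 0.67, 0.36 and -0.14. Rrad, at -1.33 and -1.53 in these fits, was the only one of the 5 partners whose unadjusted P value stayed under 0.05.

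The sexes were compared in a model that also held condition. By edgeR 0 of 33 channel genes were called, against 0.00528% of all genes, and 2 had an unadjusted P value under 0.05, against 3.1%. DESeq2 called 0 members, and without control replicate 5 edgeR called 0 and 1 had an unadjusted P value under 0.05. The 2 were Scn11a (0.316 CPM in males and 0.130 in females) and Cacna1f (0.020 CPM in males and 0.103 in females), both at a few counts per library. The interaction of sex and morphine was called in 0 members and 0% of all genes by edgeR and in 0 members by DESeq2, and 0 members had an unadjusted P value under 0.05, against 1.72% of all genes. Means of Cacna1e were 90.4 CPM in male controls and 148.8 CPM in male morphine libraries, beside 92.3 and 153 CPM in females. For Cacna2d1 the means were 79.4 and 112 CPM in males and 74.7 and 107 CPM in females, and for Scn3b 109.9 and 117 CPM in males and 94.5 and 139 CPM in females, with 2 libraries behind each mean and control replicate 5 in the female controls.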

How the data were processed

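The authors deposited a table of raw read counts in whole numbers for 24488 RefSeq transcripts in the 8 libraries. The submitters' processing notes name mm10 and DESeq2, and the study's methods describe Salmon and tximport for its gene-level analysis. Whether this transcript table came from Salmon and whether its counting used strand is not given in the sources used here. For each gene the transcript with the highest total count was kept, and 14 members had more than 1 transcript. Counts were tested with edgeR 4.0.16 (R 4.3.3; TMM factors, glmQLFit and glmQLFTest, condition as the only term) over all genes with a count, with Benjamini-Hochberg adjustment over them and a threshold of 0.05. Sex and its interaction with morphine were tested in models with those terms. CPM use TMM-scaled totals. A marker score is the mean log2 CPM of its list (prior count 2). Lengths came from GENCODE transcripts, and gene coordinates and promoters from RefSeq on GRCm38.p6. Reads are not independent molecules, so limits from counts cover counting error only.

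Values by library are given for the 12 members with the lowest unadjusted P value and the most abundant member of each family per kb, and for the 5 partner genes with the lowest P value. All 33 members enter the counts, medians and sums, and the values of 2 of them are not reported here. The members and lists were chosen with earlier results of these data known. Alternatives were DESeq2 1.42.0, limma-voom (limma 3.58.1), upper-quartile and RLE factors, 2 filters (filterByExpr, or 10 counts or more in each library), a term for sex, the sum over transcripts, marker scores in the model and each library left out in turn. The tests were tried on simulated data. Batches of sequencing are not in the labels, and none was modelled.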

Additional observations from a re-analysis of the deposited data

How the results depend on the processing

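The count of 0 channel genes called by edgeR became 2 with DESeq2 and 0 to 1 with each library left out, the 1 being Cacna1e without morphine replicate 3. The 7 members at an unadjusted P value under 0.05 were all higher in the morphine group. This count became 1 with the choroid plexus score in the model (Cacna1f, lower and not one of the 7), 1 with the telencephalic score (Cacng7, higher), and 5 to 11 with each library left out. Of all genes 12.1% passed with all libraries, 3.37% and 6.62% with these scores and 7.6% to 18.5% with a library left out. Partner genes called were 0 in edgeR and 1 with DESeq2. The 5 partners at an unadjusted P value under 0.05 (3 higher, 2 lower) became 3 with either score, all lower, and 2 (without control replicate 1) to 8 (without control replicate 2 or morphine replicate 3) with a library left out, with 3 without control replicate 6 or morphine replicate 8. Over all genes, 37 were called by edgeR and 502 by DESeq2, 23 by limma-voom, 14 with filterByExpr, 15 with at least 10 counts in every library, 22 with the sum over transcripts, 110 with sex in the model, 0 and 1 with the choroid plexus and telencephalic scores, and 0 to 77 with a library left out. For the interaction of sex and morphine, 0 to 3 members had an unadjusted P value under 0.05 with a library left out, and for sex 0 to 3.

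Signs of the log2 fold change turned in some genes. Among genes with values by library these were, with the choroid plexus score, Cacna1c (-0.0153), Cacna2d4 (0.0092), Scn3a (-0.0173) and Scn2a1 (-0.0101), and with the telencephalic score Scn3a (-0.0393). Other reported members turned too, with the choroid plexus score Cacna1b (-0.20), Cacna1d (-0.06), Cacna2d2 (-0.16), Cacnb1 (-0.01), Cacnb2 (0.06), Cacnb4 (0.26), Scn2b (-0.10) and Cacna1f (-3.39), and with the telencephalic score Cacnb1 (-0.26), Cacnb4 (0.04), Cacng5 (0.02), Cacna1f (-1.97) and Scn4a (0.245). With a library left out, Cacnb3 ranged from -0.18 to 0.0042, Cacnb4 from -0.16 to 0.04, Cacng5 from -0.07 to 0.13, Scn2b from -0.02 to 0.11, Scn11a from -0.26 to 0.57, Cacna1f from -0.84 to 1.93 and Scn4a from -1.23 to 1.00. The cause of these changes was not tested. No paired analysis was possible because the control and morphine libraries share no replicate number. With 4 libraries per group, each pooling 2 mice, adjustment over 18939 genes bounds what could be called, and the members under 1 CPM rest on a few reads.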
